A study of Mus musculus with 30 samples.

Results

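The cytosolic ribosomal protein genes are those whose proteins build the small (Rps) and large (Rpl) subunits of the ribosome outside mitochondria. They were picked by name on the arrays of the hypothalamus, as genes called Rpl or Rps followed by a digit, plus Rplp0, Rplp1, Rplp2 and Rpsa, without the S6 kinases and without the mitochondrial Mrp genes. The names matched 86 genes, and Rps19bp1, the gene of a protein that binds RPS19 and no ribosomal protein itself, was kept out. This left 85 genes with 139 probes of the 41174 probes on the array, 34 genes (56 probes) of the small subunit and 51 genes (83 probes) of the large subunit. A single probe stood for 44 of the genes, 2 probes for 29 and 3 or 4 probes for 12. The eye arrays give no gene names, so the same probes were found there by their identifiers.

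Each ribosome joins a small subunit, which reads the message, to a large subunit, which links the amino acids, and nearly every ribosomal protein is needed in a single copy per ribosome. RPL22 is an RNA-binding protein of the large subunit that many cells can live without, and its close relative RPL22L1 can take its place. In mouse cells RPL22 is known to hold down the Rpl22l1 message. RPLP0, RPLP1 and RPLP2 form the stalk to which elongation factors bind, and Rplp0 is a common reference gene in quantitative PCR.

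Male adult mice on a C57Bl/6J background were compared in 2 tissues: Per3-/- mice, which lack a working copy of the clock gene Per3, and wild-type (WT) littermates. All mice had lived in cycles of 3.5 h light and 3.5 h dark and were killed in cycle 17. The hypothalamus was a block cut around the optic chiasm that holds the suprachiasmatic nucleus and its surroundings (8 WT and 8 Per3-/- mice), and the eye was taken whole (7 WT and 7 Per3-/- mice). Per3 loss is present in every cell of these mice, and a block or a whole eye mixes many cell types, so that fewer cells of a type and less RNA per cell cannot be told apart.

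Each sample was 1 array in 1 colour. Levels are the log2 of a probe's processed signal minus the 75th percentile of its array, so that 0 is the signal that 75% of the probes stay under. That percentile lay between 1131 and 2207 signal units, and on each array 68% to 80.7% of the probes passed the scanner software's own test of being well above background. Tissue markers followed the labels: 12 of 12 eye markers were higher in WT eye, and 10 of 12 hypothalamus markers lower there. Markers of skeletal muscle (4 of 4) and fat (2 of 2) were also higher in the eye, and 3 of the 4 choroid plexus markers were higher there, as was 1 of the 4 pituitary markers on the array. Markers of neighbouring tissues varied between hypothalamus libraries. The log2 of the summed signal of the 4 anterior pituitary markers (Prl, Cga, Tshb and Lhb) was 8.94 in Per3-/- mouse 1 and 4.85 in WT mouse 5, and lay between -0.31 and 1.17 in the other 14. That of the 4 choroid plexus markers (Ttr, Kl, Folr1 and Aqp1) ran from -1.29 over -0.51 to 3.29 in WT. In Per3-/- mice it ran from -1.15 over 1.44 to 3.75. The means of all 4, as of the 4 pituitary markers, were higher in Per3-/- hypothalamus, none of them at an unadjusted p under 0.05. The median pituitary sum, in contrast, was 0.45 in WT and -0.09 in Per3-/- hypothalamus. The fat marker sum (Adipoq and Plin1) ran from -4.71 to -4.42 in WT and from -5.23 to -4.67 in Per3-/- hypothalamus. In the eye it ran from -0.97 to 2.76 in WT and from -1.07 to 3.11 in Per3-/- mice. Both fat markers were lower in Per3-/- hypothalamus at an unadjusted p under 0.05 (Adipoq by -0.69 ± 0.20 SE, Plin1 by -0.28 ± 0.09). Adipoq was well above background in only 1 of 8 WT and 0 of 8 Per3-/- hypothalami. Its difference there lies between readings near background, while Plin1 was above background in all 8 of each. The 3 blood markers (Hba-a1, Hbb-b1 and Alas2) were 0.23 to 0.32 higher in Per3-/- hypothalamus and 0.23 to 0.34 higher in Per3-/- eye. None of these blood differences reached an unadjusted p under 0.05. No marker of any list passed the adjusted threshold for genotype in either tissue. The Per3 probe was above background in both genotypes (log2 -3.46 ± 0.15 SD in WT and -3.97 ± 0.21 in Per3-/- hypothalamus, n = 8 each), and where it lies relative to the disrupted part of the gene is not given in the sources used here. Of the 139 ribosomal protein probes, 131 were well above background on all 30 arrays, 2 were so on none, and no member spot was saturated. Between 94 and 103 of the 139 per array were read from the scan at low gain, which the software uses for bright spots.

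The probes are 60 bases long, and a result here belongs to the stretch a probe covers. For Rpl22 and Rpl22l1, on which the genotype comparison turns, the probes in the coding part of the message read, 5′ to 3′, with the stop codon of Rpl22l1 in capitals:
Rpl22 A_51_P387878: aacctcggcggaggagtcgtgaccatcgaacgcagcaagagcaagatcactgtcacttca
Rpl22l1 A_51_P218814: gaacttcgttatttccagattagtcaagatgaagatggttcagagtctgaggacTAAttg
On assembly mm9 the Rpl22 probe A_51_P387878 lies on chromosome 4 at 151704158 to 151704217 (plus strand) and starts at base 179 of its transcript. The other Rpl22 probe, A_52_P391718, lies downstream at 151708012 to 151708071 and starts at base 1882. It holds a stop codon in all 3 frames of its strand, so no frame reads through it. It was taken as non-coding without an annotation to check this, and its letters are not printed. The Rpl22l1 probe lies on chromosome 3 at 28706197 to 28706256 (plus strand). A second Rpl22l1 probe, A_52_P65897, at 28704541 to 28704600, was dim, with log2 levels from -4.94 to -4.17 in WT hypothalamus, and was well above background in 5 of 7 WT and 3 of 7 Per3-/- eyes.

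No ribosomal protein probe passed the genotype test in either tissue. At an adjusted p under 0.05 (limma, Benjamini-Hochberg over all probes) 0 of the 139 probes were called in the hypothalamus, where 0.0413% of all probes were called, and 0 in the eye, where 0.0194% were. At an unadjusted p under 0.05 there were 3 member probes in the hypothalamus against 2.82% of all probes, and 1 in the eye against 1.8%. With the replicate number as a block, which joins a WT and a Per3-/- mouse of the same number, the eye count was 3. Of the 4 values without a block 3 belonged to Rpl22 and 1 to Rpl7 (A_52_P346326, 0.07 ± 0.03 SE in the hypothalamus, unadjusted p = 0.0368, adjusted p = 0.991). The groups did not overlap for 0 member probes in the hypothalamus (0.0437% of all probes) and for 1 in the eye (0.0704% of all probes), and that one was Rpl22.

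The middle of the distribution lay near 0. The median log2 difference of Per3-/- minus WT over the 139 probes was 0.02 in the hypothalamus, beside -0.01 over all probes, and 0.0045 in the eye, beside 0.0047 over all probes. Among the 131 probes above background on every array, 124 hypothalamus differences and 117 eye differences were smaller than 0.1. The 95% confidence interval stayed within 0.3 on either side of 0 for 123 of the 131 hypothalamus values and 114 eye values. The interval's half-width was 0.095 at the median in the hypothalamus and 0.19 in the eye.

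**Figure D1:**
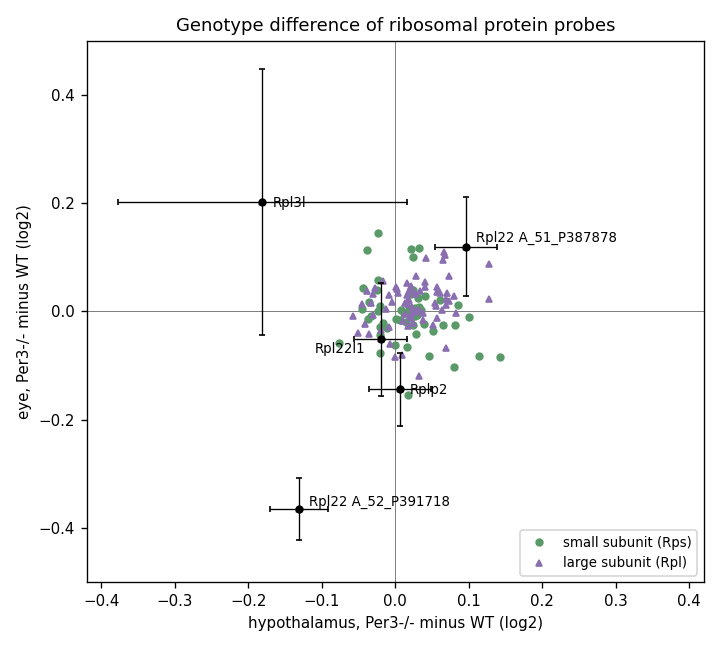
Log2 difference of Per3-/- minus WT in the hypothalamus (x axis) and the eye (y axis) for the 131 ribosomal protein probes above background on all 30 arrays, with circles for small-subunit and triangles for large-subunit genes and bars of 1 SE on the labelled probes. Of the 131 points, 124 lie within 0.1 of 0 on the x axis and 117 on the y axis, and the Rpl22 probe A_52_P391718 stands alone at -0.13 and -0.36.

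The downstream probe of Rpl22 read lower in Per3-/- mice without passing the test, and its coding probe did not read lower. Rpl22 was singled out with this difference known, so the values of its probes, and of their balance with Rpl22l1, are a description, and beside the fit over all probes they are given without a p. In the eye, A_52_P391718 ran from 3.72 over a median of 3.82 to 3.93 in WT and from 3.36 over 3.44 to 3.59 in Per3-/- mice. Every one of the 7 Per3-/- eyes was below the lowest WT eye. The difference was -0.36 ± 0.06 (SE, 7 against 7), with an adjusted p of 0.0754 in limma, which does not pass 0.05. Quantile normalization in place of the 75th percentile gave -0.36 and an adjusted p of 0.0231 in limma, and the eye then had 1 called member probe. The same count of 1 came from the probes above background in a group and from the methods' test. With the replicate number as a block, a fit that rests on 6 pairs of different mice, the difference was -0.37 and the adjusted p 0.852 in limma.

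In the hypothalamus the same probe ran from 2.19 over 2.25 to 2.35 in WT and from 2.01 over 2.13 to 2.21 in Per3-/- mice. Of the 8 Per3-/- values 5 were below every WT value, and the others fell inside the WT range. The difference was -0.13 ± 0.04 (SE, 8 against 8), adjusted p = 0.991 in limma. Without Per3-/- mouse 1, the library with the pituitary signal, it was -0.14, and without WT mouse 5 it was -0.13. The part of the choroid plexus, pituitary, fat and blood markers in the Rpl22 values was not tested beyond this. It was negative on each of the 4 slides of both tissues, between -0.17 and -0.10 in the hypothalamus and between -0.41 and -0.32 in the eye. The eye difference minus the hypothalamus difference was -0.23 ± 0.06 (SE), which did not pass the adjustment over all probes (0 member probes and 0.00486% of all probes at an adjusted p under 0.05 in limma, 3 member probes and 2.21% of all probes at an unadjusted p under 0.05).

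The coding probe A_51_P387878 did not share this direction. In the hypothalamus it ran from 4.09 over 4.17 to 4.32 in WT and from 4.18 over 4.28 to 4.39 in Per3-/- mice, with wide overlap, a difference of 0.10 ± 0.04 (SE) and an adjusted p of 0.991 in limma. In the eye it ran from 4.74 over 4.96 to 5.11 in WT and from 4.70 over 5.14 to 5.20 in Per3-/- mice, again overlapping, with a difference of 0.12 ± 0.09 (SE). Taken within each mouse, the downstream probe minus the coding probe was lower in Per3-/- mice by -0.48 in the eye and by -0.23 in the hypothalamus, a contrast chosen after both probes had been seen. Apart from genotype, over the 30 arrays with group means removed, these probes correlated at r = 0.13 (eye 0.32, hypothalamus -0.30). Among the 36 member genes with several probes above background on all 30 arrays, the gap between probes in genotype effect was widest for Rpl22. It was 0.23 in the hypothalamus and 0.48 in the eye, against medians of 0.039 and 0.046 over these genes. Rpl22 was singled out with its difference known, so this rank is a description. The gap was not set beside that of all genes on the array.

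Rpl22l1, the relative of Rpl22, gave no call. Its bright probe A_51_P218814 ran from 6.0 over 6.08 to 6.13 in WT and from 5.95 over 6.07 to 6.17 in Per3-/- hypothalamus, and the Per3-/- values spread to both sides of the WT values. The difference was -0.02 ± 0.04 (SE, adjusted p = 0.991 in limma). In the eye it ran from 4.56 over 4.79 to 5.24 in WT and from 4.55 over 4.70 to 5.0 in Per3-/- mice. The difference of -0.05 ± 0.10 (SE) turned to 0.02 without WT mouse 4.

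Rpl22 was set against Rpl22l1 within each mouse, to ask whether their balance differed with genotype. On the downstream Rpl22 probe the mean balance was lower in Per3-/- eyes by -0.31 and in Per3-/- hypothalamus by -0.11, with 3 of 7 and 6 of 8 Per3-/- mice below every WT mouse. Within the 6 eye pairs it was lower by -0.29. Since Rpl22l1 itself hardly differed, this balance repeats the difference of the downstream probe. On the coding probe the mean balance was higher in Per3-/- mice by 0.12 in the hypothalamus and by 0.17 in the eye, where the groups overlapped in both tissues.

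**Figure D2:**
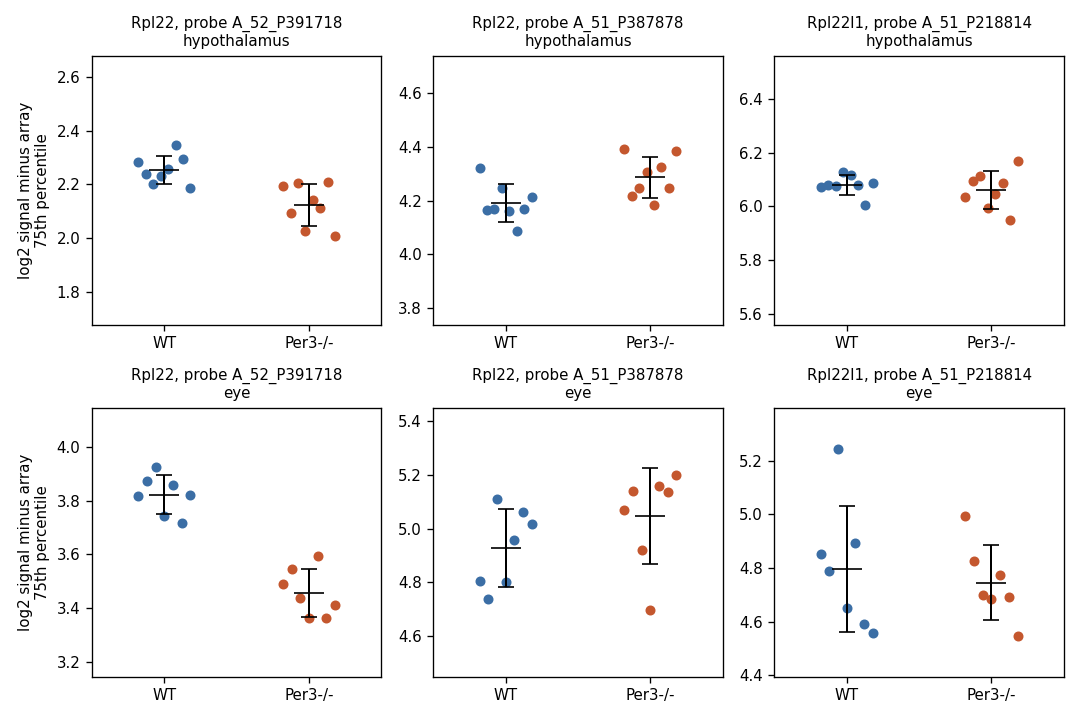
Log2 signal relative to the array's 75th percentile for both Rpl22 probes and the bright Rpl22l1 probe in WT and Per3-/- mice (upper row hypothalamus, 8 and 8; lower row eye, 7 and 7), 1 point per mouse with mean and SD, each panel spanning 1 log2 unit. The eye groups are apart for Rpl22 A_52_P391718 (3.72 to 3.93 against 3.36 to 3.59) and overlap in every other panel.

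Rpl22 lies 1.32 Mb from the Per3 probe on chromosome 4, and the probes around it were read out too. The nearest one called in both tissues was that of Kcnab2 (A_52_P508962), a potassium channel beta subunit, 57.3 kb away, with differences of -0.46 ± 0.07 (SE, adjusted p = 0.0122 in limma) in the hypothalamus and -0.77 ± 0.08 (adjusted p = 0.000924 in limma) in the eye. On the other side, 14.1 kb away, the Rnf207 probe A_51_P142594 differed by 1.2 ± 0.24 (SE, adjusted p = 0.534 in limma) in the eye and was above background on only 2 of 16 hypothalamus arrays. A second Rnf207 probe, A_52_P213722, 21.2 kb away, was above background on all 16 hypothalamus and 14 eye arrays. It differed by 0.07 ± 0.06 (SE) in the hypothalamus and 0.63 ± 0.16 in the eye, and neither value passed the adjustment. Chd5 probe A_51_P275174, 53.1 kb away, differed by -0.36 ± 0.07 (SE) in the hypothalamus and 0.38 ± 0.15 in the eye. Chd5 A_51_P321579, 14.1 kb away, differed by -0.13 ± 0.08 and 0.18 ± 0.14, and A_52_P18299 by 0.07 ± 0.06 and 0.16 ± 0.10. None of these Chd5 values passed the adjustment. The part of this neighbourhood in the Rpl22 values was not tested. No other ribosomal protein gene on chromosome 4 gave a call: on their brightest probes Rpl11 differed by -0.02 in the hypothalamus and -0.03 in the eye, Rps20 by -0.02 and -0.03, and Rps6, the substrate of the S6 kinases, by 0.02 and 0.04.

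Rplp0 gave no call between genotypes. Its brightest probe A_51_P134602 ran from 7.0 over 7.18 to 7.25 in WT and from 7.14 over 7.20 to 7.27 in Per3-/- hypothalamus, a difference of 0.06 ± 0.04 (SE, adjusted p = 0.991 in limma). In the eye it ran from 8.16 over 8.44 to 8.62 in WT and from 8.26 over 8.44 to 8.62 in Per3-/- mice, a difference of 0.01 ± 0.08 (SE) whose sign turned under normexp background correction (-0.066) and without WT mouse 5 (-0.035), WT mouse 6 (-0.0091), Per3-/- mouse 2 (-0.013) or Per3-/- mouse 3 (-0.021). The groups overlapped almost wholly in the eye. A further Rplp0 probe was printed on 10 spots per array, whose log2 signals had a median SD of 0.039 within an array, beside an SD of 0.087 between the WT hypothalami. Of its partners in the stalk, Rplp2 had the most negative eye difference among the brightest probes of the genes, at -0.14 ± 0.07 (SE, unadjusted p = 0.0522), and Rplp1 differed by -0.04 (eye) and -0.05 (hypothalamus).

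The largest remaining differences were small and not called. Taking the brightest probe of each gene where all arrays of a tissue had it above background, the 5 most positive genes in the hypothalamus were Rpl22 (0.10), Rps27l (0.09), a relative of Rps27 induced by p53, Rps4y2 (0.08), Rpl10a (0.08) and Rpl10 (0.07). The 5 most negative were Rpl3l (-0.18 ± 0.20 SE), Rpl3 (-0.06), Rplp1 (-0.05), Rps3 (-0.05) and Rpl37 (-0.05). In the eye the most positive were Rpl3l (0.20 ± 0.25 SE), Rpl22 (0.12), Rps2-ps4 (0.11), Rps15 (0.11) and Rps26 (0.10). The most negative there were Rplp2, Rps18 (-0.08), Rps27a (-0.08), which carries a ubiquitin, Rpl30 (-0.07) and Rps7 (-0.07). None of these passed the adjusted test.

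No subunit and no other list of the translation machinery held a called probe. For the small subunit 0 of 56 probes reached an unadjusted p under 0.05 in either tissue (of all probes, 2.82% did so in hypothalamus and 1.8% in eye), with median differences of 0.02 (hypothalamus) and -0.0057 (eye). The other lists were 74 probes of 36 initiation and elongation factor genes, 59 probes of 35 ribosome assembly genes, 22 probes of 10 S6 kinase genes and 126 probes of 76 mitochondrial ribosomal protein genes. Their median differences in the hypothalamus were -0.0050, -0.0065, -0.03 and 0.0056, and in the eye 0.0023, -0.0038, -0.0063 and 0.02. At an unadjusted p under 0.05 they held 2, 0, 0 and 4 probes in the hypothalamus and 0, 1, 0 and 0 in the eye, counts to be read against the same shares of all probes.

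The ribosomal protein genes were also averaged within each mouse, over the brightest probes that were above background throughout a tissue (84 genes in the hypothalamus, 85 in the eye). In the hypothalamus the mean log2 level ran from 5.58 over 5.61 to 5.70 in WT (5.62 ± 0.04 SD, n = 8) and from 5.58 over 5.63 to 5.71 in Per3-/- mice (5.63 ± 0.04 SD, n = 8). The groups overlapped almost wholly, with a difference of 0.01 (-0.00034 without Per3-/- mouse 1). In the eye it ran from 5.47 over 5.66 to 5.85 in WT (5.67 ± 0.11 SD, n = 7) and from 5.39 over 5.70 to 5.78 in Per3-/- mice (5.67 ± 0.13 SD, n = 7), a difference of 0.0060. The lowest eye of either genotype was that of mouse 5, 5.47 in WT and 5.39 in Per3-/-, and both were on slide 3, whose other pair read 5.65 and 5.76. The arrays of these 2 eyes had the highest 75th percentiles of the eye, 1615 and 1644 signal units, the quantity subtracted from every probe, and the part of this in their low means was not tested. Without both mice the difference was 0.02.

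**Figure D3:**
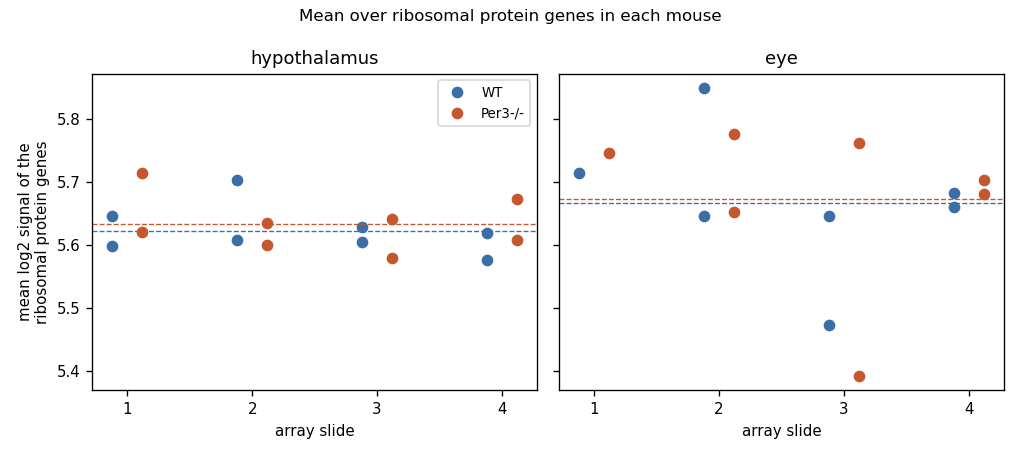
Mean log2 level over the ribosomal protein genes in each mouse (y axis; 84 genes in the hypothalamus, 85 in the eye) by array slide (x axis), with dashed lines at the genotype means. Both genotypes overlap in each tissue, the eye spreads wider (SD 0.11 and 0.13) than the hypothalamus (SD 0.04 in both), and mouse 5 of either genotype is low in the eye.

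Ribosomal protein genes varied together from eye to eye, less so when the mice numbered 5 were left out. With group means removed, the correlation between pairs of the 85 genes over the 14 eyes had a median of 0.63 and was positive for 96.2% of pairs, beside a median of 0.015 and 51.4% over pairs of all 18952 genes above background in every eye. Without both mice numbered 5, left out after seeing the data, the medians were 0.38 and 0.016, and 82.9% and 51.5% of pairs were positive. Over the 16 hypothalami the median was 0.32 for 83 genes, with 80.5% of pairs positive, beside 0.0067 and 50.7% for all 18093 genes. All pairs share the same arrays and the same subtracted percentile, so these values describe the arrays as well as the tissue. The 5 genes most like the downstream Rpl22 probe over all 30 arrays were Rpl3 (r = 0.63), Rps14 (0.56), Rpl13a (0.55), Rpl35a (0.55) and Rps25 (0.54). Within the tissues Rpl3 correlated with it at 0.85 in the eye and 0.27 in the hypothalamus, and the others at 0.69 to 0.70 in the eye and 0.23 to 0.32 in the hypothalamus.

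The tissues differed far more than the genotypes. Between WT eye and WT hypothalamus 69 of 139 probes (49.6%) were higher in the eye at an adjusted p under 0.05 in limma, against 42.1% of all probes, and 50 (36.0%) were lower, against 33.6% of all probes. These shares are close to those of the whole array. Counting the brightest probe of each gene, 18 of 34 small-subunit genes were higher and 11 lower in the eye, and 26 of 51 large-subunit genes were higher and 18 lower. The median difference was 0.16 in both subunits and 0.16 over all probes. The eye arrays and the hypothalamus arrays were run and annotated as separate sets, so array run and tissue cannot be told apart. The 128 of 131 probes above background on every array that kept their direction in the Per3-/- mice share that limit. This count was not set beside the same share of all probes.

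Rpl3l showed the widest gap between the tissues. Rpl3l is the relative of Rpl3 that takes its place in striated muscle, and its probe (chromosome 17, 24872413 to 24872681 on mm9, plus strand, across a junction) reads:
Rpl3l A_51_P243123: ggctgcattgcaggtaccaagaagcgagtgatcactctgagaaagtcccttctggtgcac
Its level ran from -5.43 over -5.12 to -3.71 in WT hypothalamus and from 0.98 over 1.64 to 2.33 in WT eye, a difference of 6.60 ± 0.22 (SE, adjusted p = 1.47e-21 in limma). Every WT eye was far above every WT hypothalamus. The summed signal of the 4 skeletal muscle markers, Acta1, Ckm, Myh4 and Tnnt3, moved with it: it ran from -1.01 to -0.64 in WT hypothalamus and from 7.01 to 8.28 in WT eye, on the log2 scale. Over the 14 eyes Rpl3l and this sum correlated at r = 0.85, and over the 16 hypothalami at 0.47. Of the hypothalami, WT mouse 2 was highest on both, at -3.71 for Rpl3l and -0.64 for the sum. Ckm was well above background in only 1 of 8 WT and 2 of 8 Per3-/- hypothalami. Rpl3, the partner of Rpl3l, did not differ beyond its error (-0.02 ± 0.06 SE).

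The other relatives went both ways. Rpl39l, known from testis, was 3.90 ± 0.22 (SE) higher in WT eye on the probe A_52_P386544, which was above background in 7 of 8 WT hypothalami and in all 7 WT eyes. Rps4y2, Rps27l and Rpl7l1 were higher in WT eye by 0.76 ± 0.08, 0.80 ± 0.06 and 0.83 ± 0.05 (SE). The pseudogene-named Rps2-ps4 was higher there by 0.64 ± 0.09. Rpl36al was lower in the eye, by -0.98 ± 0.07 (SE). Near-identical messages can bind the same probe, so these levels are uncertain where a parent gene is close in sequence.

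Rpl22 and Rpl22l1 differed between the tissues in opposite directions. Both Rpl22 probes were higher in WT eye than in WT hypothalamus, A_52_P391718 by 1.57 ± 0.04 (SE) and A_51_P387878 by 0.73 ± 0.06 (SE). Rpl22l1 was lower in WT eye by -1.28 ± 0.07 (SE) on its bright probe. In the values by mouse, the highest WT eye for Rpl22l1 (5.24) stayed below the lowest WT hypothalamus (6.0), and the lowest WT eye for the Rpl22 coding probe (4.74) stayed above the highest WT hypothalamus (4.32).

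Among the other genes the stalk was higher in WT eye on every probe. Rplp0 was higher by 1.29 ± 0.06 to 2.08 ± 0.09 (SE) over its 3 probes. Rplp2 was higher by 0.81 ± 0.05 and Rplp1 by 0.36 ± 0.08. Rpl5, which with Rpl11 binds the 5S RNA, was higher by 1.63 ± 0.06, from 5.72 ± 0.07 (SD, n = 8) in WT hypothalamus to 7.34 ± 0.10 (SD, n = 7) in WT eye, and Rpl4 by 1.35 ± 0.06. Rps19, the first gene linked to Diamond-Blackfan anaemia, was lowest relative to the hypothalamus, at 3.62 ± 0.08 (SD, n = 8) there and 0.90 ± 0.20 (SD, n = 7) in WT eye, a difference of -2.72 ± 0.09 (SE). Rpl37 was lower by -2.05 ± 0.07 (SE), Rps15 by -1.82 ± 0.08, Rpl24 by -1.48 ± 0.06 and Rpl27a by -1.45 ± 0.05. Of the 139 probes, 114 were above the array's 75th percentile on all 30 arrays.

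Probes of the same gene could differ in their tissue difference, among ribosomal protein genes as on the rest of the array. In 13 of the 36 genes with several probes above background on every array, probes of the same gene were called in opposite directions between the tissues (36.1%, beside 22.3% of all 5989 such genes on the array). Probes of a gene lay 0.81 log2 units apart in their tissue difference at the median over these genes, beside 0.75 over all such genes, and more than 1 unit apart in 13 genes (36.1%, beside 38.6%). Rps21 was the widest: its probe A_51_P489959 differed by -0.96 ± 0.06 (SE), while A_52_P740562 was 2.18 ± 0.11 higher and A_52_P678800 was 3.97 ± 0.15 higher. Rps4x had differences of 1.05 ± 0.06 and 3.97 ± 0.16 (SE) on its 2 probes. Rps15a had 1.2 ± 0.06 near the start of its transcript (base 113) and -1.55 ± 0.09 far downstream (base 4642). Genotype effects of probes of a gene lay closer together, by the medians of 0.039 and 0.046 given for Rpl22.

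**Figure D4:**
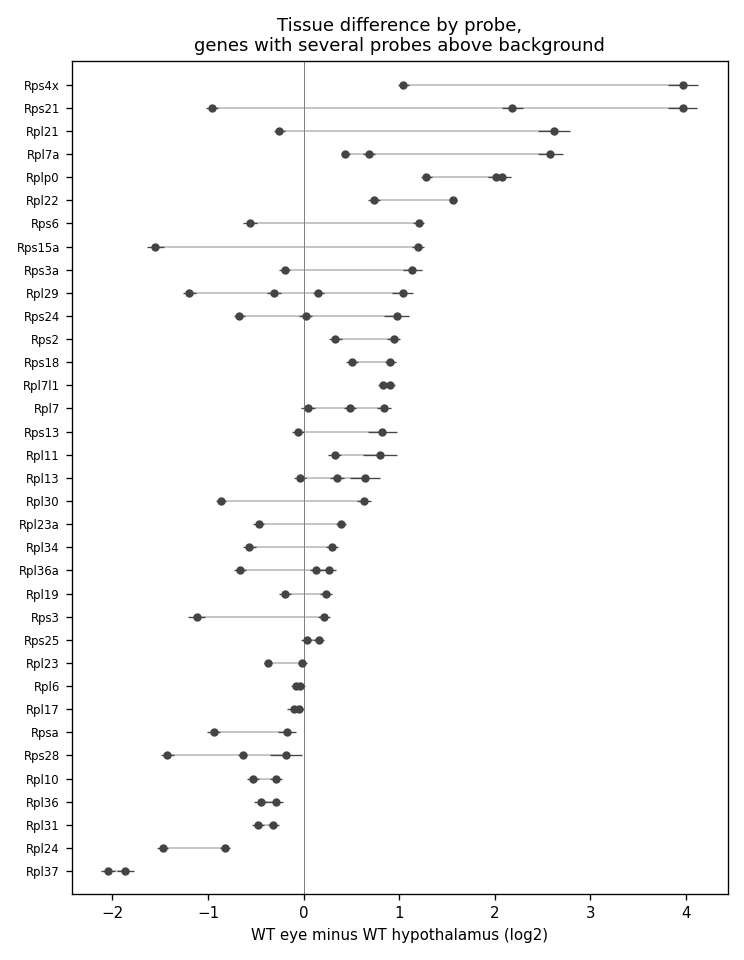
Log2 difference of WT eye minus WT hypothalamus (x axis) for each probe of 35 ribosomal protein genes with several probes above background on all 30 arrays (y axis, 1 row a gene), with bars of 1 SE and a grey line joining probes of a gene. Probes of Rps21 reach from -0.96 to 3.97, while those of Rpl6 lie close together, at -0.03 and -0.07.

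A few member probes also differed between slides of the hypothalamus, where each slide carried 2 WT and 2 Per3-/- arrays. Between slide 1 and slide 4 the median member probe moved by -0.02, but 10 of the 131 probes were over 0.3 higher on slide 4 and 0 were over 0.3 lower. The share of all probes was taken only at 0.5, so the counts at 0.3 have no comparison with the array. Of the 131, 5 probes (3.82%, beside 3.48% of the 25296 probes of the array that were above background everywhere) were over 0.5 higher. They were Rps21 A_52_P678800 (0.88), Rpl7a A_52_P548790 (0.82), Rps21 A_52_P740562 (0.57), Rps3a A_51_P292357 (0.54) and Rpl29 A_52_P217069 (0.52). Rps21 A_52_P678800 ran from 1.15 to 1.54 on slide 1 and from 2.21 to 2.39 on slide 4, without overlap. Other probes of the same genes did not follow: the third Rps21 probe moved by -0.14, the other Rpl7a probes by -0.08 and 0.03, and the other Rps3a probe by -0.02. These 5 probes also held the 5 most positive genotype differences of the 131 in the hypothalamus (0.10 to 0.14, with SEs of 0.12 to 0.19).

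Rps3a, an early-binding protein of the small subunit, has 1 probe of each kind on chromosome 3 (minus strand, mm9):
Rps3a A_51_P292357: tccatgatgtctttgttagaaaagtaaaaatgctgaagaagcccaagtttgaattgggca
Rps3a A_52_P49886: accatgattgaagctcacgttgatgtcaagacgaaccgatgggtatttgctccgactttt
The former (85942027 to 85942458, starting at base 718) holds 36.7% G and C and ran from 3.51 to 3.92 on slide 1 and from 4.22 to 4.46 on slide 4. The latter (85941845 to 85941869, starting at base 453) holds 45% and stayed level. In WT eye the former was 1.14 ± 0.10 (SE) higher and the latter differed by -0.19 ± 0.06 (SE). Over the 131 probes the slide difference correlated at a Spearman rho of -0.42 with the probe's share of G and C. With the probe's tissue difference it correlated at 0.23, and all these probes share the same arrays. The 10 probes over 0.3 higher held from 30% G and C (Rps21 A_52_P740562) to 75% (Rpl21 A_52_P258959). Rpl29 A_52_P217069, 0.52 higher, held 45%, like the level Rps3a probe. The part of G and C in the slide difference was not tested.

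**Figure D5:**
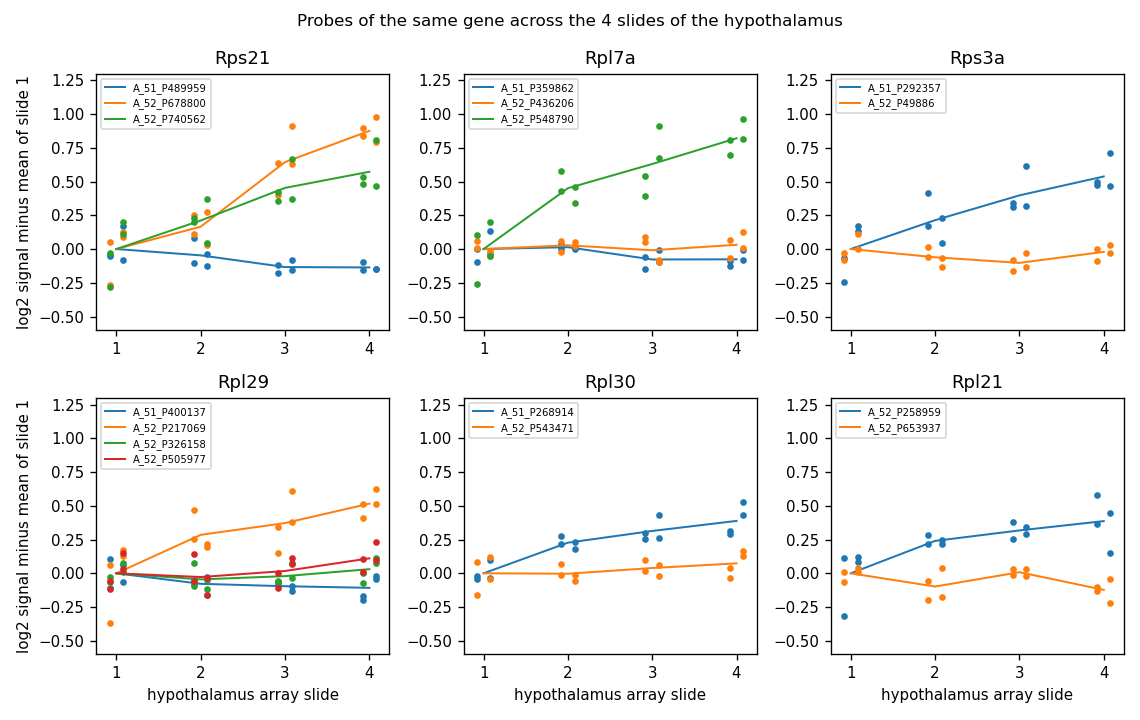
Log2 signal minus the probe's mean on slide 1 (y axis) across the 4 hypothalamus slides (x axis) for every probe of 6 ribosomal protein genes, 1 point per array (WT left, Per3-/- right of each slide mark) and lines through slide means. In each gene 1 probe, and in Rps21 a pair, climbs by 0.39 to 0.88 while the other probes stay near 0.

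Ribosomal protein messages are known for the 5′ terminal oligopyrimidine (TOP) motif, a C at the first base followed by a run of pyrimidines, through which their translation is set together. RefSeq start windows (GRCm38.p6) were at hand for 62 of the 85 genes, and a C at the annotated start followed by at least 4 more pyrimidines stood in 13 of them (21.0%), beside 3.01% of 27025 genes. Only the strand of the gene was searched, and a start annotated a few bases off hides the motif. Rps6 (chromosome 4, 86857348 to 86857372, minus strand) carried it, shown from 5 bases before the start with the run of 9 pyrimidines in capitals:
Rps6: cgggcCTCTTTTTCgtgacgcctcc
At the annotated starts of Rpl22, Rpl22l1 and Rplp0 these letters were not found.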

How the data were processed

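RNA of hypothalamic blocks and whole eyes was labelled with Cy3 and hybridised, 1 sample an array, to Agilent 4 x 44K mouse arrays. The deposited scanner intensity values were made by the authors with Agilent Feature Extraction 10.7.1.1, background-subtracted (processed signal), and the deposited log2 values of the authors are scaled to each array's 75th percentile and centred on each probe's median within a tissue. One Per3-/- eye was removed by the authors. Here the processed signal was averaged over spots of a probe, outlier spots and control spots were left out (of the member probes, 1 value, of Per3-/- hypothalamus 1), and the log2 signal minus the array's 75th percentile was fitted in limma 3.58.1 (R 4.3.3), per tissue for genotype, and over 30 arrays for tissue and interaction, where mouse was the block of duplicateCorrelation (0.059), with Benjamini-Hochberg adjustment over 41174 probes. Planned exact permutation tests of Rpl22 and its balance with Rpl22l1 are not quoted, since Rpl22 was singled out with its difference known. Scripts were tested on simulated data.

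The members, the lists and Rpl22 as a marker were chosen with earlier results of these data known. A few genes are not reported here by name. Named genes were Rpl22, Rpl22l1, Rplp0, members on chromosome 4, the extremes of genotype and tissue difference, paralogs, genes whose probes disagree and those most like Rpl22. A gene's main probe was its brightest over all arrays. Probe positions are those of the hypothalamus files (mm9), with no annotation of that build at hand. An eye and a hypothalamus of the same genotype and number were taken as 1 mouse. Mouse numbers of opposite genotypes were checked as pairs. Deviations from the group means correlated at 0.11 to 0.63 in all 6 eye pairs, which share slides. In the 8 hypothalamus pairs they correlated at -0.03 to 0.32 (over 0.1 in 3), so differences within pairs were given for the eye only. The main genotype fits of both tissues were unpaired. The replicate number as a block was run in both tissues as an alternative. Alternatives were quantile normalization, normexp (offset 50; from median signals in the eye), a filter on dim probes, the slide or replicate number as a block, the authors' values, the methods' test (an unpaired test with Benjamini-Hochberg adjustment) and leaving out each mouse.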

Additional observations from a re-analysis of the deposited data

Results flagged for a closer look

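Mice far from the rest of their group were looked for in 196 groups of named probes and of the mean over the ribosomal protein genes, and 22 values stood apart, of which chance gives about 1 in 20 groups. Of these, 10 came from the eye of Per3-/- mouse 5, which was low on each: Rps27l (3.79), Rps3 (6.82), Rpl37 (4.40), Rps2-ps4 (5.06), Rps15 (2.43), Rpl36al (2.75), Rps24 (6.25), Rpl13a (5.48), Rps25 (6.09) and the mean over the genes (5.39, where the other 6 read 5.65 to 5.78). The eye of WT mouse 5 was low for Rps27l (3.70) and Rps4x (6.96).

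In the hypothalamus, Per3-/- mouse 1 was high for Rpl10 (6.23, the others 5.78 to 5.86), Rps2-ps4 (5.11) and Rps18 (7.64), and Per3-/- mouse 8 for Rps20 (7.45). WT mouse 4 was high for Rps3 (7.15) and Rpl36al (4.29), and WT mouse 1 for Rpl31 (0.82) and Rpl35a (6.34). WT mouse 7 was low for Rpl22l1 A_51_P218814 (6.0). WT mouse 2 was high for Rpl3l (-3.71, the others -5.43 to -4.92).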

How the results depend on the processing

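The number of arrays limits the precision. Most results kept their direction and side of the threshold. With each mouse left out in turn, the member probes at an adjusted p under 0.05 stayed at 0 in both tissues, and those at an unadjusted p under 0.05 numbered 1 to 6 (hypothalamus) or 1 to 3 (eye). In the hypothalamus the count was 1 without WT mouse 3, 5 or 7 or Per3-/- mouse 1, 6 or 8, and 6 without Per3-/- mouse 5. In the eye it was 3 without WT or Per3-/- mouse 5, and 2 without WT mouse 6 or 8 or Per3-/- mouse 3, 6, 7 or 8. The Rpl22 A_52_P391718 minus Rpl22l1 difference in the hypothalamus ranged from -0.14 to -0.080. The eye difference of Rpl22l1 ranged from -0.093 (without Per3-/- mouse 2) to 0.023 (without WT mouse 4), and that of Rplp0 from -0.035 to 0.040. The cause of these changes was not tested.

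In the hypothalamus the unadjusted count was 5 by the methods' test, and the Rpl22 A_52_P391718 minus Rpl22l1 difference was -0.11 with slide as a block. In the eye, 1 member probe passed the adjustment with quantile normalization, with the filter on dim probes and by the methods' test. The eye's unadjusted count was 2 with quantile normalization, normexp, slide as a block, the dim-probe filter, the methods' test or both mice numbered 5 left out (chosen after seeing the data). Rpl22 A_52_P391718 in the eye was -0.36 (adjusted p = 0.0231 in limma) with quantile normalization. Rplp0 in the eye was -0.066 with normexp and -0.0055 without both mice numbered 5.

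With the replicate block the eye's unadjusted count was 3 and Rpl22 A_52_P391718 minus Rpl22l1 was -0.29. In the hypothalamus the replicate block left 0 calls and an unadjusted count of 2. The replicate block changed no other call. The fit between tissues with no mouse block gave 68 higher and 50 lower probes.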
